A study of Homo sapiens with 4 samples.

Results

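The acid compartment of the cell was examined through 46 genes, chosen by name: 24 genes of the vacuolar proton pump (10 V0, 12 V1 and 2 accessory subunits), 12 cathepsins, 6 lysosome membrane proteins, the transcription factors TFEB, TFE3 and MITF, and the acid phosphatase gene ACP5. These genes and the other lists below were chosen with earlier results of these data known, so their counts are a description only. Of these, 44 were represented by a probe set annotated to a single gene, among 18417 such genes on the array, and each of the 44 had exactly 1 such probe set. ATP6V0A4 and ACP5 were not analysed here. PC-3-BM cells, labelled as having high metastatic potential, were compared with parental PC-3 cells, labelled as having poor metastatic potential, on 2 Affymetrix Human Gene 1.0 ST arrays per line. PC-3 is a human prostate cancer line established from a bone metastasis, and both lines carried a firefly luciferase and green fluorescent protein reporter. PC-3-BM was a subline recovered from the bones of nude mice through 3 rounds of intracardiac injection, selected with geneticin, expanded in culture and sorted for the fluorescent protein, so that the effects of selection, mouse passage and expansion cannot be told apart. Whether RNA came from cultured cells or from cells taken out of mice was not settled, because the labels mention growth in immunocompromised animals and the methods mention culture. The arrays of a line are numbered but not tied to separate cultures, so that p-values measured the spread between arrays, which may be technical.

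The vacuolar ATPase is a rotary pump that uses ATP to move protons into lysosomes, endosomes and secretory vesicles. Its V1 sector hydrolyses ATP in the cytosol, a central rotor turns the membrane ring of the V0 sector, and the proton passes between that ring and the a subunit. The acid it makes activates cathepsins and other hydrolases, and in osteoclasts the same pump acidifies the resorption space against bone while cathepsin K digests the exposed collagen. Many lysosomal genes carry E-box motifs in their promoters that are bound by TFEB, TFE3 and MITF.

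In PC-3-BM cells, 5 of the 6 listed lysosome membrane genes rose, and of the 23 measured pump genes 7 rose and 2 fell. Cathepsins moved in both directions, and the catalytic subunit ATP6V1A was not called. At an adjusted p below 0.05 (limma, Benjamini-Hochberg over all probe sets), 14 of the 44 measured genes rose and 5 fell, and 25 did not pass. The largest increases were those of ATP6V0D2 (7.23-fold), MCOLN3 (4.39-fold) and CTSK (2.75-fold) on the RMA values, with the parental ATP6V0D2 reading too dim to fix its fold, and the largest decreases were those of CTSL (0.59-fold), CTSH (0.60-fold) and ATP6V1F (0.76-fold). The median difference of the 44 genes was 0.10 on the log2 scale, against −0.04 for all 18417 genes. The lines differed widely, which sets the scale for these counts. Over all probe sets 23.2% passed the same threshold, and by gene 29.6% passed, 14.8% higher and 14.8% lower in PC-3-BM. The share was higher for brighter genes, and among the 10146 genes with a mean above 7 it was 43.0%, with 21.8% higher and 21.2% lower. The listed genes included more bright ones than the array as a whole, 32 of 44 having a mean above 7. The arrays of the lines did not overlap for 35 of the 44 genes (79.5%), 16 of them not called, against 70.6% of all genes, so that a gap between the lines is no call. In bulk RNA, more or fewer cells that express a gene and more or less RNA per cell cannot be told apart.

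With 2 arrays per line the smallest two-sided exact permutation p for a single gene is 0.333, so every call rests on the variance that limma shares across probe sets. Leaving out each array in turn lowered the number of listed genes that rose to between 6 and 10, and left 2 that fell in every case. ATP6V0D2, MCOLN3, CTSK, LAMP1, CTSD, OSTM1, CTSL and CTSH kept their call without any of the 4 arrays, and no called gene changed its direction.

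**Figure D1:**
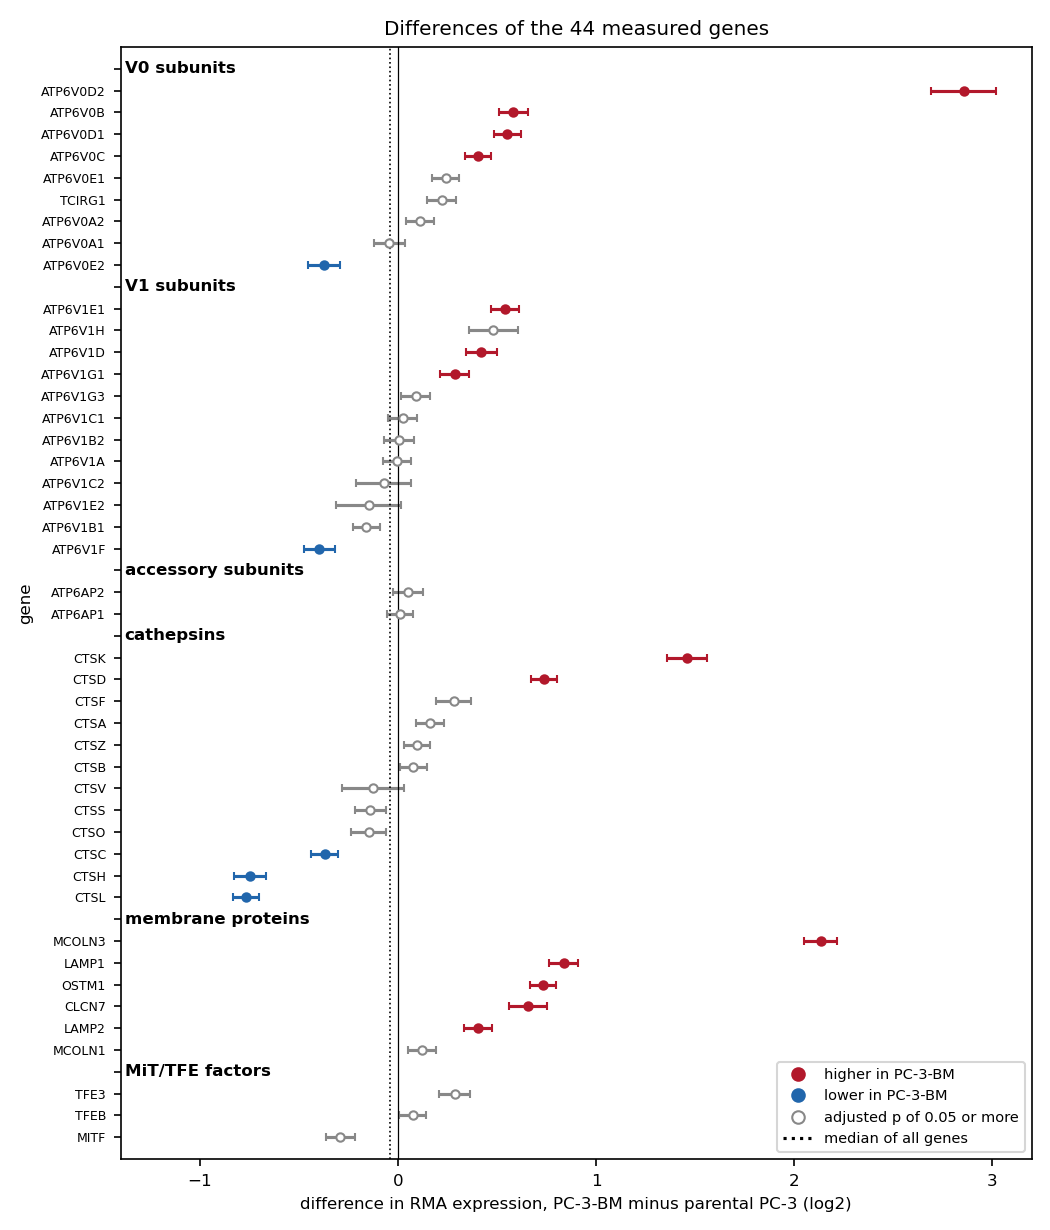
Differences in RMA expression (log2, PC-3-BM minus parental PC-3) of the 44 measured genes, by role, with bars for the standard error of limma; filled points passed an adjusted p of 0.05 and the dotted line is the median of all genes, −0.04. ATP6V0D2 at 2.85, MCOLN3 at 2.13 and CTSK at 1.46 stood furthest to the right, and cathepsins lay on both sides of 0.

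Promoter sequence was available in the RefSeq table for 32 of the 44 genes, as windows of 250 bases before to 50 bases after each annotated start. The palindromic E-box CACGTG, searched on both strands, was found in 10 of the 32 (31.2%), against 10.9% of the 14239 measured genes with a window. All 10 also held the extended form TCACGTG, which contains the shorter motif, against 5.87% of measured genes. The 8-letter form TCACGTGA was found in 5 of the 32 (15.6%), against 1.71%. Many lysosomal genes are known to carry E-box motifs, so a higher share in a list of such genes does not test a link with TFEB. The 10 genes are given with 12 bases on each side of the E-box, since they carry a motif that the TFEB family can bind. Coordinates are those of GRCh38.p14, capitals mark CACGTG, and the sequence reads along the strand of the gene.
ATP6V0B, chr1:43974909-43974938, plus strand: gtaccggcgcatCACGTGggcgagttaggt
ATP6V0D1, chr16:67481199-67481228, minus strand: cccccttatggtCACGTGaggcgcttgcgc
ATP6V0E2, chr7:149872884-149872913, plus strand: tcccttctgcatCACGTGgggactgcgcct
ATP6V1G1, chr9:114587699-114587728, plus strand: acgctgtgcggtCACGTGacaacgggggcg
CTSA, chr20:45891298-45891327, plus strand: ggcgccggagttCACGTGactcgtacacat
CTSD, chr11:1763957-1763986, minus strand: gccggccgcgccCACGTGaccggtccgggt
CTSF, chr11:66568712-66568741, minus strand: acatataacaagCACGTGatagaggtcagt
LAMP1, chr13:113297226-113297255, plus strand: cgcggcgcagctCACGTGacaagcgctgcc
CLCN7, chr16:1475038-1475067, minus strand: cccgtcgcgcgtCACGTGgccgccggcgcg
MCOLN1, chr19:7522598-7522627, plus strand: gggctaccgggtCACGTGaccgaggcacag
The extended motif read TCACGTG on 1 strand or the other in each of these windows, and LAMP1 held 6 copies of CACGTG in its window. Of the 10 genes, ATP6V0B, ATP6V0D1, ATP6V1G1, CTSD, LAMP1 and CLCN7 rose, ATP6V0E2 fell, and CTSA, CTSF and MCOLN1 were not called, with a median difference of 0.42. Among the 22 genes whose windows held none, 5 rose and 4 fell, with a median of 0.06. All 10 genes with the motif had a mean above 7, where 43.0% of genes were called, against 29.6% of all genes. The groups were not matched for brightness, and its part in their contrast was not tested. Across all 836 measured genes with TCACGTG in a window, 22.0% rose and 14.8% fell, and across those without it 15.1% rose and 15.3% fell. For the shorter CACGTG, found in 1557 measured genes that include these 836, 17.6% rose and 17.4% fell. Genes with only the shorter form were not counted apart. A match describes letters in a window and no binding was measured.

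The V0 sector held the gene with the largest difference of the 44. Of its 9 measured subunits ATP6V0D2, ATP6V0B, ATP6V0D1 and ATP6V0C rose, ATP6V0E2 fell and 4 were not called, with a median difference of 0.24. The share called was 55.6%, against 29.6% of all genes and 43.0% of those with a mean above 7, which 7 of the 9 had. ATP6V0D2 encodes the d subunit found in osteoclasts and kidney, which links the V0 ring to the rotor. It read 8.08 and 7.62 on the PC-3-BM arrays and 4.98 and 5.02 on the parental PC-3 arrays. Both PC-3-BM values lay more than 2 log2 units above both parental values, and the parental mean lay below the lower quartile of all values on the arrays, 5.02, so that the fold depends on a dim reading. The difference was 2.85 ± 0.16 (SE, n = 2 arrays per line, adjusted p = 0.00183), and it stayed between 2.62 and 3.09 without any one array. The widely expressed d subunit, ATP6V0D1, read 11.23 and 11.20 in PC-3-BM and 10.64 and 10.68 in parental PC-3, a difference of 0.55 ± 0.07 (SE, adjusted p = 0.00779). Both d subunit genes were thus higher in PC-3-BM. Their arrays did not overlap between lines, as was so for 70.6% of all genes.

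The proton-carrying ring is made of proteolipid subunits, encoded by ATP6V0C (c) and ATP6V0B (c″). ATP6V0B read 10.85 and 10.86 in PC-3-BM and 10.32 and 10.22 in parental PC-3, a difference of 0.58 ± 0.07 (SE, adjusted p = 0.00797). ATP6V0C read 12.25 and 12.26 in PC-3-BM against 11.85 and 11.86 in parental PC-3, a difference of 0.40 ± 0.07 (SE, adjusted p = 0.0157). For both ring genes the arrays of the lines were separated, as for 70.6% of all genes. Of the small e subunits 1 was called. ATP6V0E2 read 8.69 and 8.56 in PC-3-BM and 9.03 and 8.97 in parental PC-3, and fell by 0.37 ± 0.08 (SE, adjusted p = 0.0339). Its widely expressed paralogue ATP6V0E1 read 12.79 and 12.78 in PC-3-BM against 12.51 and 12.58 in parental PC-3, a difference of 0.24 ± 0.07 that was not called (SE, adjusted p = 0.0711). The difference between the e subunits was not tested.

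None of the 3 measured a subunits, which form the proton path and set where the pump is sent, passed the test. TCIRG1, the a3 subunit that osteoclasts place at the ruffled border, read 8.92 and 9.03 in PC-3-BM and 8.76 and 8.75 in parental PC-3, a difference of 0.22 ± 0.07 (SE, adjusted p = 0.103). ATP6V0A2, the a subunit of Golgi and endosomes, read 8.87 and 8.94 in PC-3-BM and 8.78 and 8.81 in parental PC-3, with an adjusted p of 0.325. ATP6V0A1, the a subunit of synaptic vesicles and other membranes, read 4.26 and 4.15 in PC-3-BM and 4.21 and 4.28 in parental PC-3, below the lower quartile of the arrays in both lines. Among the a subunits the PC-3-BM readings were slightly above the parental ones for TCIRG1 and ATP6V0A2 and overlapped them for ATP6V0A1.

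**Figure D2:**
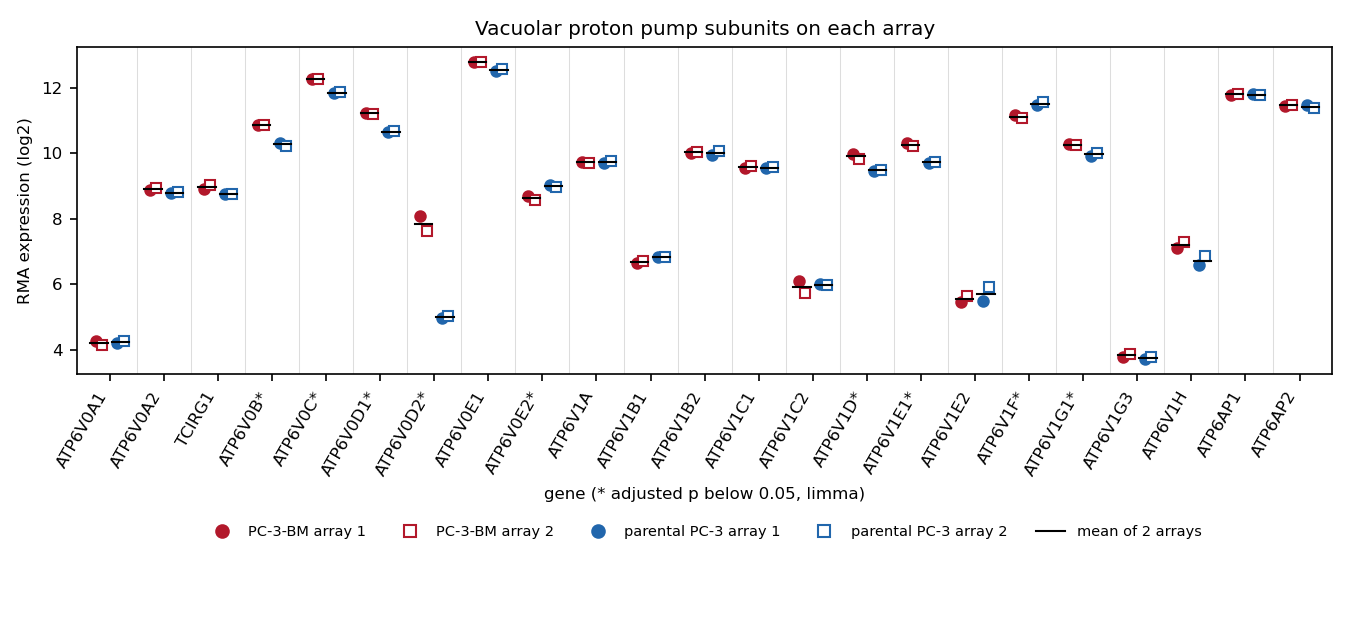
RMA expression (log2) of the 23 measured pump subunits on each of the 4 arrays, PC-3-BM in red and parental PC-3 in blue, with the mean of 2 arrays as a line; an asterisk marks an adjusted p below 0.05. ATP6V0D2 was at 8.08 and 7.62 in PC-3-BM against 4.98 and 5.02 in parental PC-3, while the symbols of ATP6V1A and ATP6V1B2 lay on top of each other.

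Of the 12 measured V1 subunits ATP6V1E1, ATP6V1D and ATP6V1G1 rose, ATP6V1F fell and 8 were not called, with a median difference of 0.02. The share called was 33.3%, against 29.6% of all genes and 43.0% of those with a mean above 7, which 7 of the 12 had. ATP6V1A, the catalytic A subunit, read 9.72 and 9.71 in PC-3-BM and 9.69 and 9.76 in parental PC-3 (difference −0.01 ± 0.07, SE, adjusted p = 0.965). Its widespread partner ATP6V1B2 read 10.005 and 10.04 in PC-3-BM and 9.96 and 10.07 in parental PC-3 (difference 0.01 ± 0.08, SE). The arrays of both overlapped between lines, and an adjusted p above the threshold does not show equal expression. ATP6V1B1, the B subunit of kidney and inner ear, read 6.64 and 6.70 in PC-3-BM against 6.83 and 6.83 in parental PC-3, with an adjusted p of 0.170.

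The E and G subunits form the peripheral stalks that hold the pump still while the rotor turns. ATP6V1E1 read 10.30 and 10.22 in PC-3-BM and 9.71 and 9.73 in parental PC-3, a difference of 0.54 ± 0.07 (SE, adjusted p = 0.00905). Its paralogue ATP6V1E2, known from testis, read 5.46 and 5.64 in PC-3-BM and 5.48 and 5.92 in parental PC-3, and the arrays overlapped. ATP6V1G1 read 10.27 and 10.25 in PC-3-BM against 9.93 and 10.02 in parental PC-3, a difference of 0.29 ± 0.07 whose adjusted p of 0.0483 lay next to the threshold. ATP6V1G3, a kidney subunit, read 3.80 and 3.87 in PC-3-BM and 3.71 and 3.78 in parental PC-3, below the lower quartile in both. Only the widely expressed member of each stalk pair was called, and the difference between paralogues was not tested.

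D and F make up the central rotor. ATP6V1D read 9.97 and 9.84 in PC-3-BM and 9.47 and 9.50 in parental PC-3, a difference of 0.42 ± 0.08 (SE, adjusted p = 0.0226). ATP6V1F read 11.15 and 11.08 in PC-3-BM and 11.47 and 11.57 in parental PC-3, and fell by 0.40 ± 0.08 (SE, adjusted p = 0.0244). The rotor genes thus moved in opposite directions, and neither overlapped between lines, like 70.6% of all genes. ATP6V1H, which stops ATP hydrolysis by V1 that has come off the membrane, read 7.12 and 7.29 in PC-3-BM against 6.58 and 6.86 in parental PC-3, a difference of 0.48 ± 0.12 just outside the threshold (SE, adjusted p = 0.0524), which it passed under 5 of the other settings tried. The C subunits, which join the sectors, were ATP6V1C1 at 9.54 and 9.62 in PC-3-BM and 9.54 and 9.58 in parental PC-3, and ATP6V1C2 at 6.11 and 5.73 in PC-3-BM and 6.01 and 5.98 in parental PC-3. Their arrays overlapped. The accessory subunits ATP6AP1 and ATP6AP2, needed for assembly and trafficking of the pump, differed by 0.01 and 0.05 and were not called. Over the 23 measured pump genes 7 rose and 2 fell (39.1%), against 29.6% of all genes and 43.0% of those with a mean above 7, which 16 of the 23 had, and the counts that rose fell to between 1 and 4 when single arrays were left out. Of these genes ATP6V0D2 was called without every array in turn.

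The 12 cathepsins did not move together. CTSK and CTSD rose, CTSL, CTSH and CTSC fell, and 7 were not called, with a median difference of −0.02. The share called was 41.7%, against 29.6% of all genes and 43.0% of those with a mean above 7, which 8 of the 12 had. Of those 8 cathepsins 4 were called, 1 higher and 3 lower. CTSK, the collagen-digesting cysteine protease of osteoclasts, read 7.66 and 7.67 in PC-3-BM and 6.09 and 6.32 in parental PC-3, a difference of 1.46 ± 0.10 (SE, adjusted p = 0.00248). The PC-3-BM arrays lay above both parental arrays by more than 1 log2 unit. CTSS, the cysteine protease of antigen-presenting cells that lies beside CTSK on chromosome 1, read 4.22 and 4.35 in PC-3-BM and 4.45 and 4.398 in parental PC-3, below the lower quartile in both lines, with an adjusted p of 0.279. CTSD, the main aspartic protease of lysosomes, read 12.15 and 12.16 in PC-3-BM against 11.41 and 11.42 in parental PC-3, a difference of 0.74 ± 0.07 (SE, adjusted p = 0.00404).

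CTSL, a broad endopeptidase of lysosomes, read 8.68 and 8.67 in PC-3-BM and 9.42 and 9.46 in parental PC-3, and fell by 0.77 ± 0.07 (SE, adjusted p = 0.00384). Its close relative CTSV read 5.05 and 4.80 in PC-3-BM and 4.87 and 5.23 in parental PC-3, and the lines overlapped. CTSH, an aminopeptidase, read 6.92 and 6.93 in PC-3-BM against 7.75 and 7.60 in parental PC-3, and fell by 0.75 ± 0.08 (SE, adjusted p = 0.00573). For CTSL and CTSH the lines were separated by more than 0.6 log2 units. CTSC, the dipeptidyl peptidase that activates granule serine proteases, read 10.87 and 10.91 in PC-3-BM and 11.28 and 11.24 in parental PC-3, and fell by 0.37 ± 0.07 (SE, adjusted p = 0.0218). The cathepsins not called, CTSA, CTSB, CTSF, CTSO, CTSS, CTSV and CTSZ, had differences between −0.15 and 0.28.

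Of the 6 lysosome membrane genes 5 were higher in PC-3-BM (83.3%). Of all genes 14.8% were higher, and 21.8% of those with a mean above 7, which all 6 had. LAMP1, LAMP2, CLCN7, OSTM1 and MCOLN3 rose, MCOLN1 was not called and none fell, with a median difference of 0.69. MCOLN3, a cation channel of endosomes and lysosomes, read 8.05 and 8.18 in PC-3-BM and 5.94 and 6.02 in parental PC-3, a difference of 2.13 ± 0.08 (SE, adjusted p = 0.001003). Both PC-3-BM arrays lay more than 2 log2 units above both parental arrays. MCOLN1, the lysosomal calcium channel of the same family, read 10.61 and 10.69 in PC-3-BM against 10.52 and 10.54 in parental PC-3, a difference of 0.12 ± 0.07 (SE, adjusted p = 0.299), with a narrow gap between the lines.

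LAMP1 and LAMP2 are heavily glycosylated proteins that coat the inner face of the lysosome membrane. LAMP1 read 10.82 and 10.88 in PC-3-BM and 9.97 and 10.06 in parental PC-3, a difference of 0.84 ± 0.07 (SE, adjusted p = 0.00394). LAMP2 read 11.35 and 11.38 in PC-3-BM against 11.00 and 10.93 in parental PC-3, a difference of 0.40 ± 0.07 (SE, adjusted p = 0.0186). Both were separated between the lines, as were 70.6% of all genes. CLCN7 encodes the chloride-proton exchanger of lysosomes and the osteoclast ruffled border, and OSTM1 its partner subunit, and loss of either causes osteopetrosis. CLCN7 read 9.55 and 9.39 in PC-3-BM and 8.74 and 8.89 in parental PC-3, a difference of 0.66 ± 0.09 (SE, adjusted p = 0.0112). OSTM1 read 7.73 and 7.74 in PC-3-BM against 7.004 and 7.002 in parental PC-3, a difference of 0.73 ± 0.07 (SE, adjusted p = 0.00408). The arrays of exchanger and partner likewise did not overlap between lines. Without single arrays between 3 and 4 of these 6 genes were called higher.

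None of the transcription factors that bind the E-box of lysosomal promoters passed the test as fitted. TFEB read 6.56 and 6.57 in PC-3-BM and 6.47 and 6.51 in parental PC-3 (difference 0.07 ± 0.07, SE, adjusted p = 0.491). TFE3 read 10.16 and 10.08 in PC-3-BM and 9.79 and 9.88 in parental PC-3 (difference 0.29 ± 0.08, SE, adjusted p = 0.0595). MITF read 8.18 and 8.28 in PC-3-BM against 8.54 and 8.50 in parental PC-3 (difference −0.29 ± 0.07, SE, adjusted p = 0.0508). TFE3 and MITF lay just outside the threshold with differences of opposite sign, and both passed it with an intensity trend, with 1-symbol probe sets alone or with probe sets of a mean above 5. These factors are controlled largely by their place in the cell, and no localisation was measured.

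**Figure D3:**
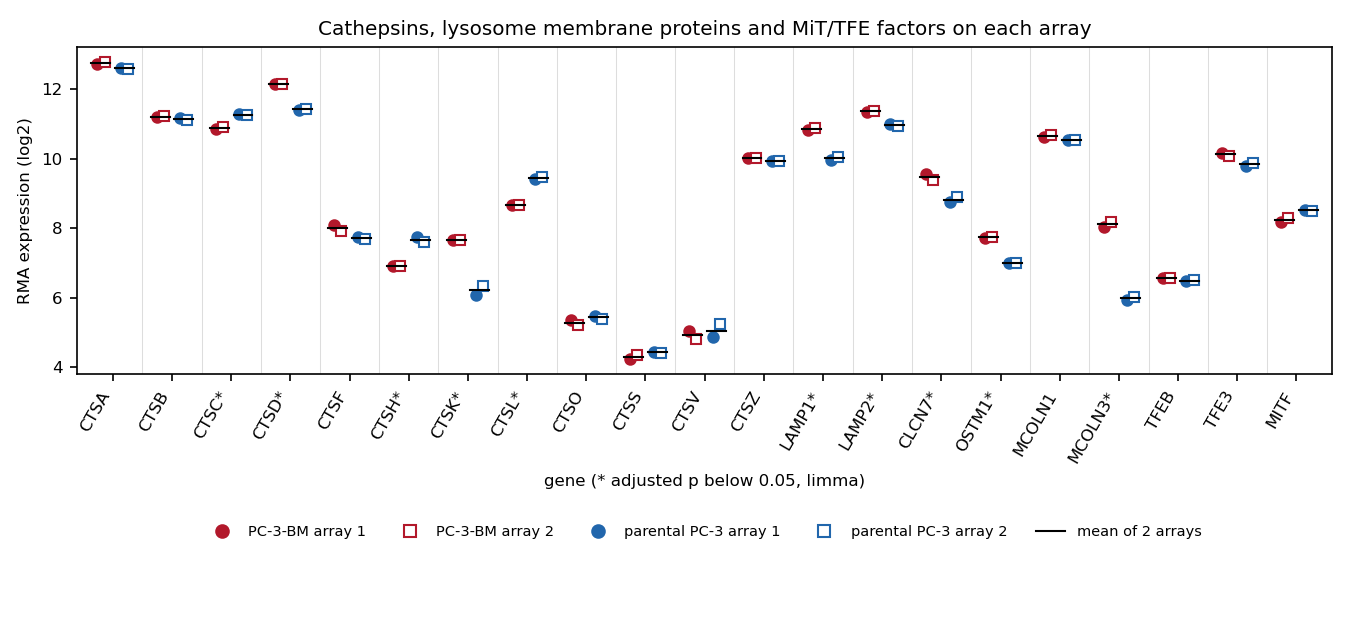
RMA expression (log2) of the 12 cathepsins, 6 lysosome membrane genes and 3 transcription factors on each of the 4 arrays, PC-3-BM in red and parental PC-3 in blue, with the mean of 2 arrays as a line; an asterisk marks an adjusted p below 0.05. MCOLN3 was at 8.05 and 8.18 in PC-3-BM against 5.94 and 6.02 in parental PC-3, and CTSL, CTSH and CTSC were lower in PC-3-BM.

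Other lists of the same pathway were counted in the same fit, without a test of any list. For scale, 14.8% of all genes rose and 14.8% fell, and with a mean above 7 21.8% rose and 21.2% fell. Most genes of the lysosome membrane (31 of 33), acid hydrolase (36 of 39), mannose 6-phosphate (19 of 20) and autophagy (30 of 32) lists had such a mean. Among the 33 measured genes of further lysosome membrane proteins 13 rose and 2 fell, with a median of 0.19. SLC17A5, the sialic acid exporter, read 10.55 and 10.56 in PC-3-BM and 8.50 and 8.66 in parental PC-3 (difference 1.97 ± 0.09, SE, adjusted p = 0.00126). LMBRD1, which moves cobalamin out of lysosomes, read 9.72 and 9.83 in PC-3-BM and 8.14 and 8.16 in parental PC-3 (difference 1.62 ± 0.08, SE). The lines were separated by more than 1 log2 unit in both. MCOLN2, the remaining channel of the MCOLN family, and SLC38A9, an arginine sensor for mTORC1, also rose, by 1.05 and 0.98.

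Of 39 measured acid hydrolases 13 rose and 5 fell, with a median of 0.16. GALC, which breaks down galactosylceramide, had the largest difference of this list and fell, reading 4.32 and 4.84 in PC-3-BM and 6.504 and 6.64 in parental PC-3 (difference −1.99 ± 0.18, SE, adjusted p = 0.00412), with a PC-3-BM mean below the lower quartile of the arrays. CTBS, SCPEP1 and DNASE2, which degrade the sugar chains of glycoproteins, peptides and DNA, rose by 0.82, 0.75 and 0.73. Of 20 genes listed with the mannose 6-phosphate route, which carries new hydrolases to lysosomes, 8 rose and 4 fell. These included the receptor IGF2R at a difference of 0.59, the adaptors GGA2 and AP1G1 at 0.61 each and AP1S1 at −0.58. Genes of the AP3 adaptor, not particular to this route, were also in the list. Of them AP3B1 and AP3D1 rose, AP3M1 fell and AP3S1 was not called. Of 32 autophagy genes 13 rose and 1 fell, with a median of 0.20. GABARAPL1, a protein of the autophagosome membrane, rose by 1.21 ± 0.11 (SE, adjusted p = 0.00437), and ATG14, ATG9A and WIPI1, of autophagosome formation, rose by 0.85, 0.82 and 0.77.

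Of 13 measured genes listed as protease inhibitors 1 rose and 4 fell, with a median of −0.13. CST3, cystatin C, the main secreted inhibitor of cysteine cathepsins, read 9.95 and 9.74 in PC-3-BM and 11.23 and 11.16 in parental PC-3 (difference −1.35 ± 0.10, SE, adjusted p = 0.00271). Both parental arrays lay above both PC-3-BM arrays by more than 1 log2 unit. LXN, the 1 that rose, inhibits carboxypeptidases rather than cysteine cathepsins, and read 9.63 and 9.37 in PC-3-BM and 7.76 and 7.65 in parental PC-3 (difference 1.80 ± 0.11, SE). SERPINB3 and SERPINB4, near-identical neighbours whose probes may read each other, fell by 1.38 and 1.08.

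Of 11 measured genes of pump assembly and reassembly NCOA7 and DMXL1, which act on the pump's sectors at the membrane, rose, by 0.56 and 0.40, and VMA12, a factor that builds V0 in the endoplasmic reticulum, fell by 0.50. Among 24 genes that control TFEB 5 rose (20.8%) and 3 fell (12.5%). Of genes with a mean above 7, which 22 of the 24 had, 21.8% rose and 21.2% fell. FLCN, FNIP1 and FNIP2, the folliculin complex acting on the Rag GTPases, rose by 0.52, 0.66 and 0.51. Of the Rag GTPases RRAGB fell by 0.77, RRAGC rose by 0.46, and RRAGA and RRAGD were not called. In the list of 9 measured genes of acid bone resorption PLEKHM1, a lysosome trafficking adaptor mutated in osteopetrosis, rose by 1.07 ± 0.16 (SE, adjusted p = 0.0123). SLC29A3, SNX10 and TNFRSF11A, a lysosomal nucleoside transporter, a sorting nexin and the receptor RANK, fell by 0.61, 0.42 and 0.36 in that list. SLC29A3 is also 1 of the 2 genes that fell in the list of lysosome membrane proteins.

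**Figure D4:**
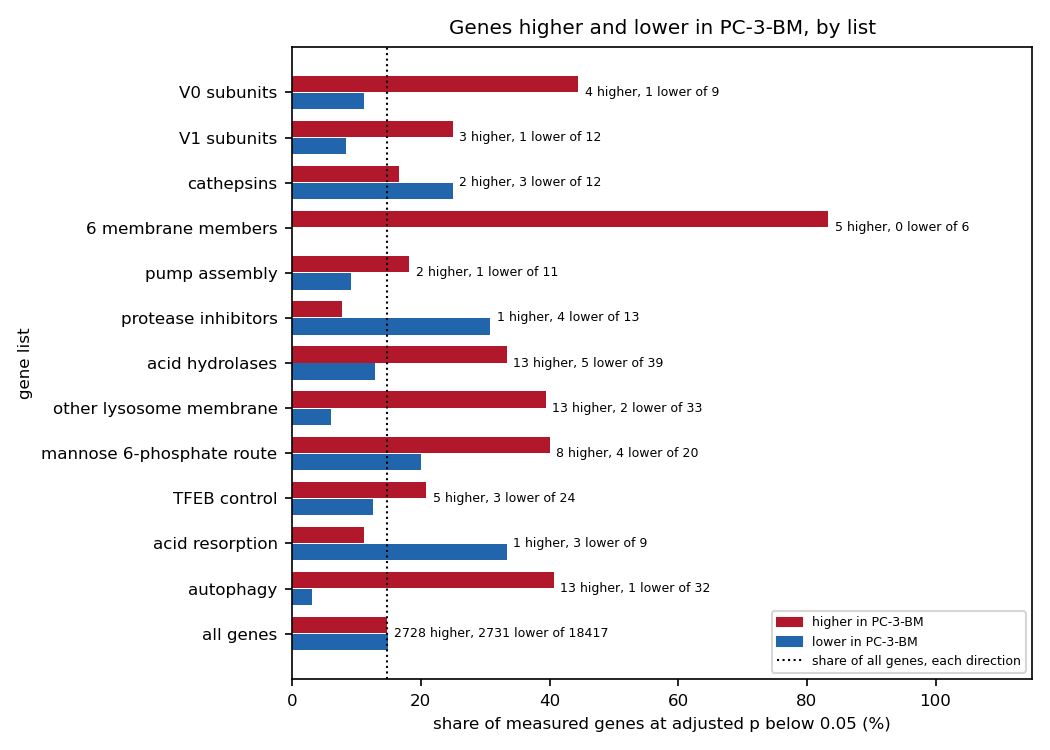
Percentage of the measured genes of each list at an adjusted p below 0.05, higher in PC-3-BM in red and lower in blue, with the counts beside the bars; the dotted line is the share of all genes, 14.8% in each direction. The 6 membrane genes reached 83.3% higher, and the lysosome membrane, mannose 6-phosphate and autophagy lists lay near 40%. Nearly all genes of these lists had a mean above 7, and of all genes with such a mean 21.8% were higher.

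Markers of other cells that bone-derived samples could hold were read on the same arrays. The mean level of 17 osteoclast and macrophage genes was 5.83 and 5.80 on the PC-3-BM arrays and 5.83 and 5.79 on the parental PC-3 arrays, 7 of them lay below the lower quartile in both lines, none rose and 1, ITGB3, fell by 0.30. The 11 measured stromal and osteoblast markers had a mean of 6.09 and 6.12 in PC-3-BM and 6.06 and 6.05 in parental PC-3. Of these COL1A1 rose by 0.68 and LUM, below the lower quartile in both lines, by 0.53, and PDGFRA fell by 0.33. The 8 endothelial and blood markers had a mean of 5.92 and 5.91 in PC-3-BM and 5.96 and 5.95 in parental PC-3, and 1 of them, PECAM1, rose by 0.45. They were not alike in level, and 3 of them lay below the lower quartile in both lines. KDR was bright in both, at 10.76 and 10.65 in PC-3-BM and 10.94 and 10.80 in parental PC-3, and was not called. Of 6 measured epithelial and luminal markers 4 fell, among them KRT8 with a difference of −2.03 and EPCAM with −1.30, and CDH1 lay near the lower quartile in both lines, at means of 5.02. The part of any of these in the results above was not tested.

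The position of the genes was examined because neighbouring genes can share a difference. For each gene the 20 nearest measured genes in RefSeq order were counted, 10 on each side. Over 17908 genes the median was 2 neighbours higher and 2 lower. MCOLN3 had 10 higher and 0 lower, a number reached by 2.74% of genes, with a median neighbour difference of 0.35. CTBS at 0.82, MCOLN2 at 1.05, LPAR3 at 0.90 and CCN1 at 1.73 lay among them. ATP6V0D1 had 9 higher and 0 lower, LAMP1 8 and 0, and OSTM1 8 and 3, and 7.49% of genes had at least 8 higher. Around LAMP1 the higher genes included TMEM255B at 1.85, GAS6 at 1.49 and CUL4A at 0.90. LMBRD1 and SLC17A5 had 10 and 9 neighbours higher.

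Other leading genes had fewer higher neighbours than these. ATP6V0D2 had 0 neighbours higher and 3 lower, with a median of −0.14, and CTSK 6 higher and 1 lower, with a median of 0.12. CTSD had 1 neighbour higher and 0 lower, CLCN7 2 and 0, CTSL 1 and 2, and CTSH 2 and 3. MITF had 1 neighbour higher and 9 lower. Copy number was not measured, and its part in these differences was not tested.

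**Figure D5:**
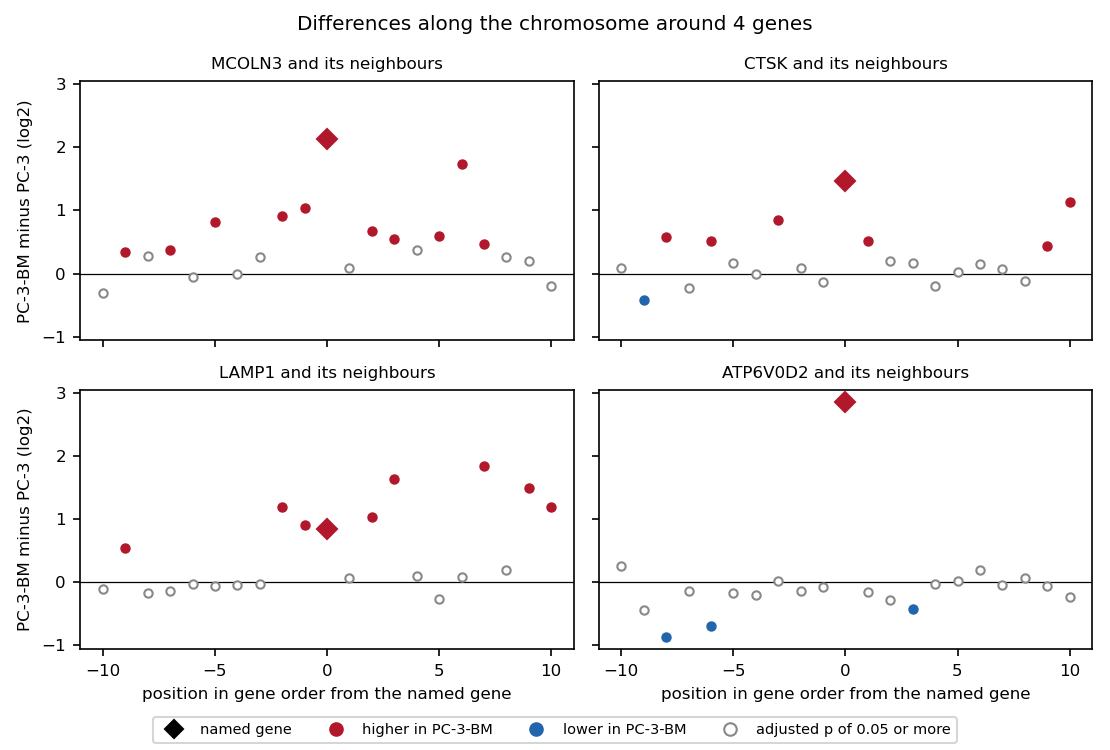
Difference in RMA expression (log2, PC-3-BM minus parental PC-3) of MCOLN3, CTSK, LAMP1 and ATP6V0D2 (diamonds) and of the 10 nearest measured genes on each side, in gene order; red and blue mark an adjusted p below 0.05, higher and lower. MCOLN3 and LAMP1 stood among 10 and 8 higher neighbours, and ATP6V0D2 among 0.

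In the main fit the stricter thresholds of the study's methods (absolute difference above 2, adjusted p below 0.001) were met by 17 probe sets of 33297 (0.0511%). They were met by 0 of the 44 genes. The study reported more genes at its thresholds than this fit gave. With centring, trend, 1-symbol probe sets and a mean above 5, 84, 99, 83 and 85 probe sets met them. MCOLN3 and ATP6V0D2 had differences above 2 and missed the limit on p, which both met after median centring, with the trend, or with 1-symbol probe sets alone. Their adjusted p values as fitted were 0.001003 and 0.00183.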

How the data were processed

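Total RNA of PC-3-BM and parental PC-3 cells (2 arrays each) was extracted with a column kit, converted to biotin-labelled cRNA and hybridised to 1-colour arrays. The authors made the deposited log2 values by RMA, which corrects background, quantile-normalises the arrays and summarises probes, so that differences of dim genes are compressed; limma 3.24 and R 3.2 are listed in the notes of the submitters on processing. The values were used as deposited. Array medians ran from 6.66 to 6.72, and between arrays of a line r was at least 0.996 across probe sets. The number of arrays limits the precision.

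A model of group means was fitted to all 33297 probe sets (limma 3.58.1, R 4.3.3; residual df 2, prior df 2.88), with empirical Bayes moderation and Benjamini-Hochberg adjustment. No covariate was used. A gene was its brightest probe set with 1 gene symbol in GEO's platform annotation (19460 probe sets, with 1754 naming several genes and left out). All called genes and their paralogues are given by array, and of each other list up to 4 called genes with the largest differences. The other Rag GTPase genes and the AP3 genes were added to these. The members and lists were chosen with earlier results of these data known. Gene order, symbols and promoters came from RefSeq (GRCh38.p14); the files name no build. The fit was checked on simulated data. Alternatives were median centring, a mean above 5, 1-symbol probe sets alone, an intensity trend, the mean of a gene's probe sets, the replicate number as a block and leaving out each array.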

Additional observations from a re-analysis of the deposited data

How the results depend on the processing

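Of the 19 called genes 18 kept their call under centring, filtering, trend, 1-symbol and probe set averaging and under the block, 8 did so without any single array, and none changed direction. The arrays' numbers did not pair them (correlation of the deviations of same-numbered arrays −0.02), and with the replicate block 14 genes rose and 5 fell as before, ATP6V1G1 losing its call (adjusted p = 0.0860). ATP6V1H gained a call with centring, trend, 1-symbol probe sets, a mean above 5 and the block, TFE3, MITF and ATP6V0E1 with the trend, 1-symbol probe sets and a mean above 5, and TCIRG1 and CTSF with 1-symbol probe sets. Leaving out an array leaves 1 in that line, which is then assumed to vary like the others. Counts then ranged, for all listed genes, from 6 to 10 higher and from 2 to 2 lower, for the pump from 1 to 4 and from 0 to 0, and for the membrane genes from 3 to 4 higher. Over the other lists they ranged, higher and lower, as 0 to 1 and 0 to 1 for pump assembly, 5 to 7 and 1 to 4 for acid hydrolases, 8 to 10 and 0 to 1 for lysosome membrane, 1 to 3 and 0 to 2 for the mannose 6-phosphate route, 0 to 1 and 1 to 1 for TFEB control, 0 to 1 and 0 to 1 for acid resorption, and 3 to 7 and 0 to 0 for autophagy. Pump assembly had 3 lower with the trend, with 1-symbol probe sets and with a mean above 5. Lysosome membrane had 6 lower with 1-symbol probe sets. Autophagy had 0 lower with centring and with the block. The study's thresholds were met by 2 listed genes and by 84, 99, 83 and 85 probe sets with centring, trend, 1-symbol probe sets and a mean above 5, by 0 probe sets with the block, and by 0 to 0 without any array. Without single arrays 8 genes that were never called changed sign, with differences of ATP6V0A1 from −0.096 to 0.0097, ATP6V1A from −0.036 to 0.025, ATP6V1B2 from −0.0495 to 0.063, ATP6V1C1 from −0.019 to 0.065, ATP6V1C2 from −0.26 to 0.12, ATP6V1E2 from −0.36 to 0.0704, ATP6AP1 from −0.0061 to 0.027 and CTSV from −0.31 to 0.055. With centring ATP6V1A was 0.029. The cause was not tested for any of these. A mean above 5 removes ATP6V0A1, ATP6V1G3, CTSS and CTSV, and other dim genes are likewise limited by their signal over background. ATP6V0D2, with a parental mean of 4.998, stays in under that filter only through its PC-3-BM arrays, so meeting the study's thresholds there adds no support.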
